A study of Schizosaccharomyces pombe with 28 samples.

Results

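The genes described here are the fission yeast splicing factor genes whose symbol in the array's gene table starts with cwf or prp followed by a number. The rule found 40 of 2899 measured Schizosaccharomyces pombe genes, 22 of them cwf genes and 18 prp genes, and each has 1 probe set on the array. Splicing removes introns from precursor mRNA in a pair of chemical steps carried out by the spliceosome, which assembles from small nuclear ribonucleoprotein particles (snRNPs) and many further proteins. The Cwf proteins were named as proteins complexed with Cdc5, the core of the Prp19 complex that joins the spliceosome as it becomes active, and the prp genes take their name from pre-mRNA processing. Fission yeast has many more genes with introns than budding yeast, and loss of several of these factors arrests its cell cycle. By role, 4 of the 40 act at the branch site with U2 snRNP or its helpers, 7 belong to or act on the U5 snRNP and the U4/U6.U5 tri-snRNP, 14 belong to the Prp19 complex or its partners, 3 are DEAH-box helicases, and 12 are factors of the catalytic steps or other associated proteins. Of the 40 genes, 9 lie on chromosome I, 21 on chromosome II and 10 on chromosome III. The genes spp42 (also cwf6), smd2 (cwf9), cyp7 (cwf27), spf38 (cwf17), cdc28 (prp8), prp39 and prp40 carry other symbols in the array's table and so fall outside the rule.

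PolyA RNA from 4 strains of S. pombe was hybridised to 28 Affymetrix yeast arrays in 3 projects, numbered 488, 529 and 582. The strains were a double null lacking both zfs1 and cbf12, a zfs1-null, a cbf12-null and wild type (WT), and all of them grew without treatment to mid-log phase in rich YES medium at 30 °C. Project 488 held 3 zfs1-null and 3 WT samples, project 529 held 5 zfs1-null and 5 WT samples, and project 582 held 3 double-null, 3 zfs1-null, 3 cbf12-null and 3 WT samples. The replicates are called biological in the series text, but the sources used here do not say whether each came from its own culture or clone, and p-values therefore cover the spread between these samples and no more, which may be technical. Zfs1 is an RNA-binding zinc finger protein of the tristetraprolin family that promotes decay of mRNAs with AU-rich elements, and Cbf12 is a transcription factor that binds DNA and belongs to the CSL family.

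The deleted genes checked the strain labels. The zfs1 signal was 0.0618 to 7.70 on the 14 arrays of strains without zfs1, against 389 to 630.0 on the 14 arrays of strains with it, and the cbf12 signal was 0.142 to 0.670 on the 6 arrays without cbf12, against 170.2 to 1016 on the 22 with it. All 40 cwf and prp genes lay above background on all 28 arrays, at 40.8 to 688 times the percentile 95 of the probe sets for other species, which was 3.65 to 5.44. The 18 probe sets for budding yeast genes named PRP read 0.0506 to 8.24 on the same arrays. Precision is limited by the number of arrays. The median SD between replicates of the 40 genes on the log2 scale was 0.06 to 0.08 in 7 of the 8 groups and 0.14 in the double null. Markers of other cell states were measured as summed signals and none of the 14 lay below background in any group. The 5 M mating type markers summed to 2755 to 2970.4 in zfs1-null and 3298 to 3326 in WT arrays of project 488, to 3862 to 4616 and 4161 to 4299 in project 529, and to 2949 to 3163 and 4956 to 5244 in project 582, in the same order of strains. The 5 markers of meiosis and sporulation summed to 949 to 1030.3 in the double null, 1164 to 1299 in the 3 zfs1-null groups, 1637 to 1757 in the cbf12-null and 1432 to 1748 in the 3 WT groups. The 4 P mating type markers summed to 4056 to 4339 in the double null, 3161 to 4325 in the zfs1-null groups, 3626 to 3681 in the cbf12-null and 2732 to 4042 in the WT groups. The part of these shifts in the results below was not tested.

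The splicing factor transcripts moved little between strains. Across the 8 group means a gene's log2 signal spanned 0.11 to 0.81, with a median of 0.46, beside a median of 0.52 over all 2899 genes. These groups differ in project as well as in strain, so the spans hold differences between projects too. The widest spans belonged to prp43, a helicase of spliceosome disassembly, cwf14, a Prp19 complex component, and cwf23, a protein with a DnaJ domain, and the narrowest to cwf20. For cwf14 the WT means of the projects alone spanned 0.66. The largest change between 2 strains was 1.64-fold, a lower cwf23 signal in the double null than in the cbf12-null. A gene was called changed when its limma p-value, adjusted by the Benjamini-Hochberg method over all 2899 genes, was below 0.05. Whether the arrays of 2 strains overlapped is described for single genes and was not counted over all genes. With 3 arrays per strain such separation was frequent and is no separate evidence for a call. In the zfs1-null against WT of project 582, 9 of the 40 genes were higher and 9 lower without overlap, while 3 were called. Over 10 comparisons, 11 of the 40 genes were called in none, namely cwf2, cwf14, cwf15, cwf18, cwf20, cwf24, cwf25, prp5, prp10, prp19 and prp45, and 1, prp1, was called in 6. Over all genes 21.9 percent were called in none, against 27.5 percent of the 40. Because MAS5 sets the trimmed mean of each array to the same value, directions are relative to all probe sets. When the arrays were scaled to equal medians or normalized by quantiles instead, calls were gained and lost.

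**Figure D1:**
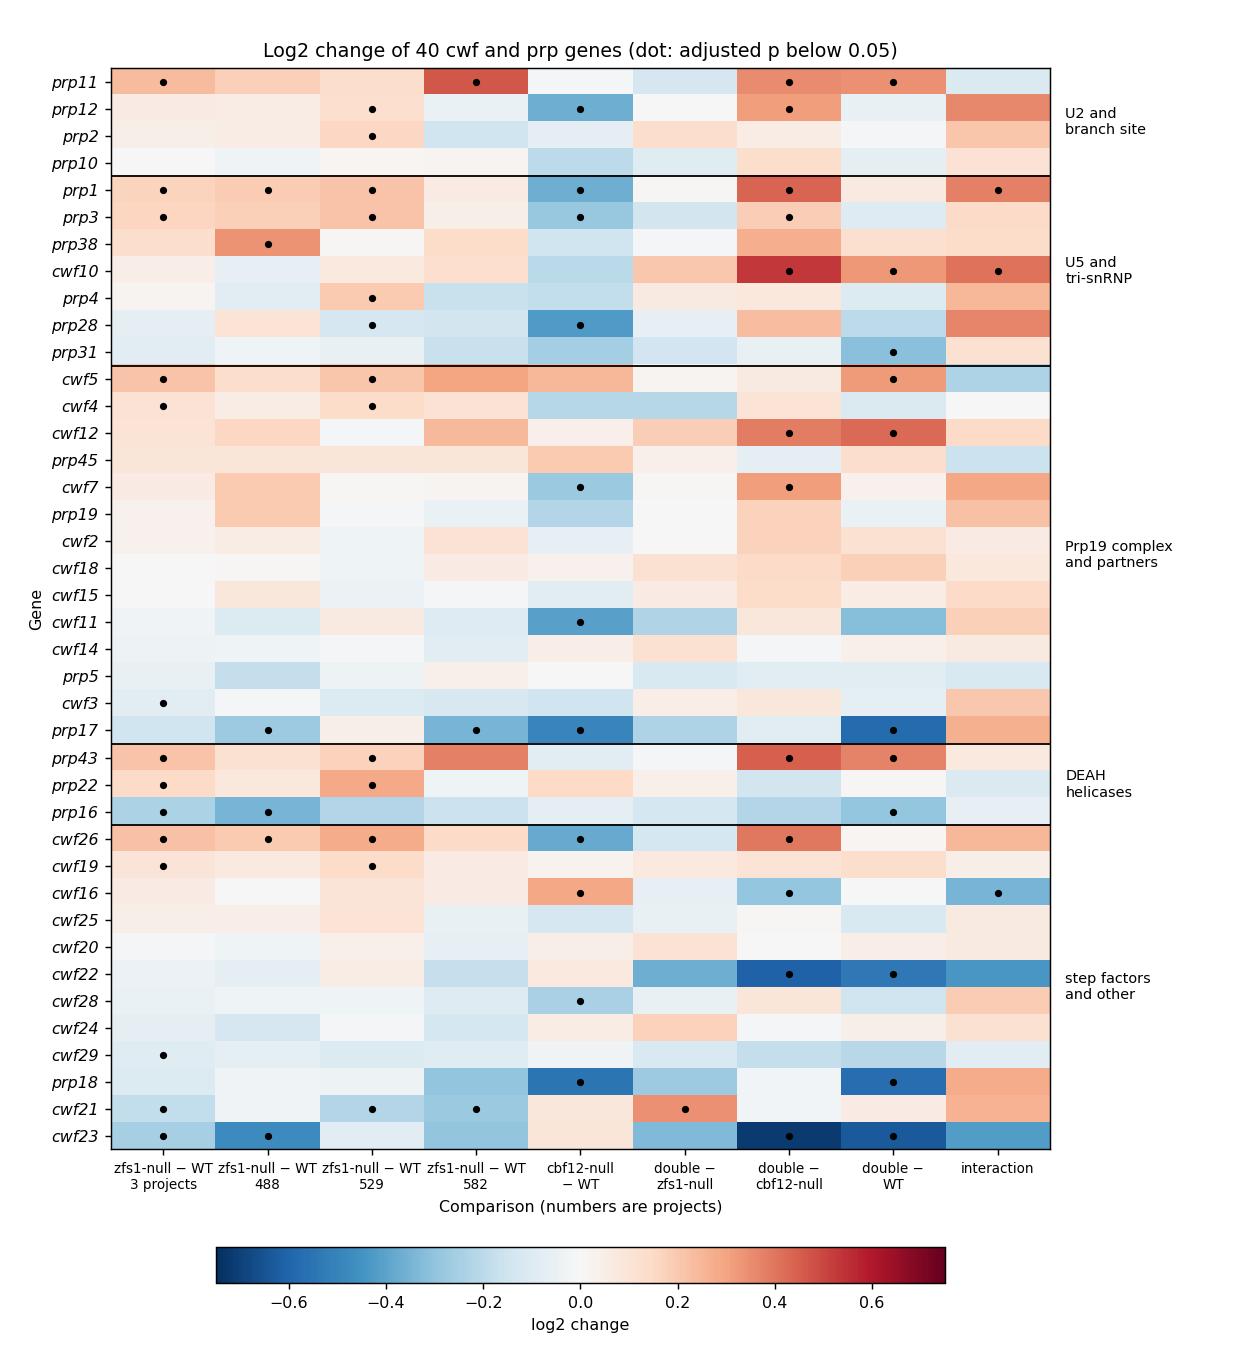
Log2 changes of the 40 cwf and prp genes (rows, grouped by role and ordered within a role by the combined zfs1 change) in 9 comparisons (columns, with the strain named first minus the strain named second; numbers are projects), red for positive and blue for negative, with a dot where the limma adjusted p is below 0.05. The combined zfs1 column has 14 dots, the cbf12-null against WT column 11, of which 10 are blue, and the column of the double null against the zfs1-null has 1.

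The first comparison asked what follows for these transcripts when Zfs1 is absent, over all 3 projects with a term for project. On 11 zfs1-null against 11 WT arrays, 9 genes rose and 5 fell, 14 of 40 in all, where 41.6 percent of all genes were called, 23.4 percent higher and 18.3 percent lower. The median log2 change of the 40 genes was 0.03, beside 0.02 over all genes. With arrays scaled to equal medians the split was 9 higher and 9 lower (all genes 18.5 and 21.6 percent), and with quantile normalization 9 and 8 (22.7 and 20.8 percent), the 14 among them under both. Those that rose were prp11, cwf26, prp43, cwf5, prp1, prp3, prp22, cwf4 and cwf19, and those that fell were cwf23, prp16, cwf21, cwf29 and cwf3. Of the 14, 13 had the same sign in each project, and so had 21 of all 40 genes, but none was called in each of the 3 projects alone and 22, or 55 percent, were called in no project alone. Over all genes 49.1 percent had the same sign in each project, 5.17 percent were called in each and 48.4 percent in none alone. Without a term for project the calls of cwf3, cwf4, cwf19, cwf23, cwf29, prp3, prp22 and prp43 were lost. The 3 projects' own fits use the same arrays as the combined one and are no independent repeat of it.

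Among genes of the branch site, prp11 encodes a DEAD-box RNA helicase that corresponds to budding yeast Prp5 and acts with U2 snRNP. Its signal was 741, 762 and 822 in zfs1-null, against 685, 693 and 676 in WT arrays of project 488. In project 529 prp11 read 794, 777, 805, 793 and 767 in zfs1-null and 846, 710.1, 704, 668 and 683 in WT arrays, and in project 582 it read 922, 1099 and 849.5 in zfs1-null and 586, 728 and 764 in WT arrays. The zfs1-null arrays were higher without overlap in projects 488 and 582, and overlapped WT in project 529, where 1 WT array stood above the rest. Over 3 projects prp11 rose 1.18-fold (log2 0.23 ± 0.06 SE, adjusted p = 0.00141). The other 3 branch site genes, prp2 (the U2AF large subunit), prp10 and prp12 (both of the SF3b complex of U2 snRNP), had log2 changes of 0.04, 0.00 and 0.06 and were not called.

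Of the 7 genes of the U5 and tri-snRNP group, prp1 and prp3 rose. The prp1 product bridges U5 and U4/U6 in the tri-snRNP. Its signal was 1318, 1326 and 1256 in zfs1-null and 1146, 1171 and 1096 in WT arrays of project 488, and 1186, 1220.3, 1257, 1295 and 1275 in zfs1-null and 1113, 1083, 1093, 1061 and 1033 in WT arrays of project 529. In project 582 prp1 read 1289, 1195 and 1160.0 in zfs1-null and 1141, 1172 and 1181 in WT arrays. The strains did not overlap in the first 2 of these projects and overlapped in project 582. The combined change of prp1 was 1.12-fold (log2 0.17 ± 0.03 SE, adjusted p = 8.69e-05). For prp3, a U4/U6 protein, the signal was 1812, 1679 and 1923 in zfs1-null and 1518, 1586 and 1671 in WT arrays of project 488. In project 529 prp3 read 1837, 1679, 1939, 1803 and 1822 in zfs1-null and 1753, 1659, 1588, 1457 and 1377 in WT arrays, and in project 582 1949, 1948 and 2022 in zfs1-null and 1935, 2015 and 1802 in WT arrays. The groups of prp3 were apart in project 488 only, and its combined log2 change was 0.16 ± 0.04 SE, adjusted p = 0.00241. The other 5 genes, which encode the GTPase Cwf10, the kinase Prp4, the helicase Prp28 and the tri-snRNP proteins Prp31 and Prp38, had log2 changes of -0.08 to 0.13 and were not called.

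In the Prp19 complex group cwf5 and cwf4 rose and cwf3 fell, 3 of 14, where 41.6 percent of all genes were called. Cwf5 is an RNA-binding protein that contacts U6 RNA in the activated spliceosome. Its signal was 655, 600.1 and 726 in zfs1-null and 539.6, 607 and 660.1 in WT arrays of project 488, and 666, 638, 709, 684 and 615 in zfs1-null and 568, 523, 595, 628 and 559 in WT arrays of project 529. In project 582 it was 693, 678 and 592 in zfs1-null and 466, 556 and 580.0 in WT arrays, apart there and overlapping in the other projects. The combined log2 change of cwf5 was 0.21 ± 0.05 SE, adjusted p = 0.00136. Cwf4 and Cwf3 are scaffold proteins with repeats of the HAT type. The cwf3 signal was 1548, 1646 and 1553 in zfs1-null and 1659.7, 1569.5 and 1546 in WT arrays of project 488, and 1297, 1391, 1366, 1362 and 1348 in zfs1-null and 1589, 1521, 1395, 1344 and 1427 in WT arrays of project 529. In project 582 cwf3 read 1206, 1179 and 1143 in zfs1-null and 1280.2, 1271 and 1276 in WT arrays, apart there and overlapping in the other projects. The combined log2 change was 0.11 ± 0.03 SE, adjusted p = 0.00715, for cwf4, and -0.08 ± 0.03 SE, adjusted p = 0.034, for cwf3. The call of cwf3 was lost when any 1 of 5 arrays was left out (WT replicate 1 of project 488, WT replicates 1 and 2 and zfs1-null replicate 1 of project 529, and zfs1-null replicate 3 of project 582), with an adjusted p of at most 0.0662, and the other 13 calls were kept when each of the 22 arrays was left out.

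All 3 DEAH-box helicases were called, with unlike signs, where 41.6 percent of all genes were called. Prp16, which remodels the spliceosome after the first step, fell. Its signal was 415, 468 and 421 in zfs1-null and 572, 551 and 539 in WT arrays of project 488, and 431, 439, 447, 448 and 390.2 in zfs1-null and 629, 538, 488, 429 and 447 in WT arrays of project 529. In project 582 prp16 read 417, 463 and 436 in zfs1-null and 479, 500.2 and 488 in WT arrays. The zfs1-null arrays were lower without overlap in projects 488 and 582 and overlapped in project 529. The combined signal of prp16 was 0.847 of that in WT (log2 -0.24 ± 0.05 SE, adjusted p = 0.000817). Prp43 and Prp22, which act in disassembly and in release of the mRNA, rose. For prp43 the signal was 835, 890.1 and 1016 in zfs1-null and 843, 919 and 765 in WT arrays of project 488, and 802, 789, 841, 816 and 889 in zfs1-null and 732, 737, 686, 736 and 770.3 in WT arrays of project 529. In project 582 prp43 read 756, 718 and 670.5 in zfs1-null and 438, 593 and 635 in WT arrays. The strains were apart in the last 2 projects and overlapped in project 488, and the combined log2 change of prp43 was 0.22 ± 0.06 SE, adjusted p = 0.00269. That of prp22 was 0.14 ± 0.05 SE, adjusted p = 0.0213, and without project 529 it was 0.02 and not called (adjusted p = 0.796).

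Of the 12 step factors and other associated genes, cwf26 and cwf19 rose and cwf23, cwf21 and cwf29 fell. The combined log2 change of cwf19, a protein known for late steps of the spliceosome, was 0.10 ± 0.03 SE, adjusted p = 0.00987. Without project 529 the calls of cwf19, cwf29, cwf3, cwf4 and prp3 were lost, their log2 changes being 0.07, -0.08, -0.06, 0.08 and 0.11. Cwf26 and Cwf29 belong to the RES complex, which binds the spliceosome before its activation and is known for retention of unspliced RNA. The signal of cwf26 was 1039.8, 995 and 1078 in zfs1-null and 922, 920.4 and 876 in WT arrays of project 488, and 1097, 1102, 1032, 1094 and 974 in zfs1-null and 909, 913, 886, 842 and 821 in WT arrays of project 529. In project 582 it was 1114, 1078 and 1137 in zfs1-null and 1001, 949.9 and 1061 in WT arrays. The zfs1-null arrays were higher without overlap in all 3 projects. The combined rise of cwf26 was 1.16-fold (log2 0.22 ± 0.03 SE, adjusted p = 8.22e-06), the smallest adjusted p among the 40. Its RES partner cwf29 fell by a small amount (log2 -0.09 ± 0.03 SE, adjusted p = 0.0139). It read 940.1, 957 and 949 in zfs1-null and 967, 1001 and 1024 in WT arrays of project 488, and 996, 1014, 1002, 1004 and 946 in zfs1-null and 1009, 1127, 1097, 1049 and 1051 in WT arrays of project 529. In project 582 cwf29 read 1149, 1199.8 and 1234 in zfs1-null and 1249.9, 1365 and 1207 in WT arrays, and the strains were apart in project 488 only.

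Cwf21, a protein of the active spliceosome that binds Prp8 in budding yeast, read 1746, 1828 and 1783 in zfs1-null and 1802, 1845 and 1798 in WT arrays of project 488. In project 529 its signal was 1652, 1600.3, 1751, 1695 and 1679 in zfs1-null and 1919, 2044, 2024, 1897 and 1872 in WT arrays, and in project 582 1803, 1746 and 1762 and 2077, 2276 and 2102, in the same order. The strains overlapped in project 488 and were apart in the other projects, with zfs1-null lower. The combined signal of cwf21 was 0.881 of WT (log2 -0.18 ± 0.03 SE, adjusted p = 5.21e-05). For cwf23 the signal was 307, 319 and 309.9 in zfs1-null and 466, 405 and 434 in WT arrays of project 488, and 322, 353, 348, 308 and 349 in zfs1-null and 337, 433, 337, 337 and 337 in WT arrays of project 529. In project 582 it was 424, 374 and 374 in zfs1-null and 418, 468 and 562 in WT arrays. Only in project 488 did the strains not overlap. The combined signal of cwf23 was 0.842 of WT (log2 -0.25 ± 0.06 SE, adjusted p = 0.00255), a call that was lost without project 488 (log2 -0.16, adjusted p = 0.0871).

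**Figure D2:**
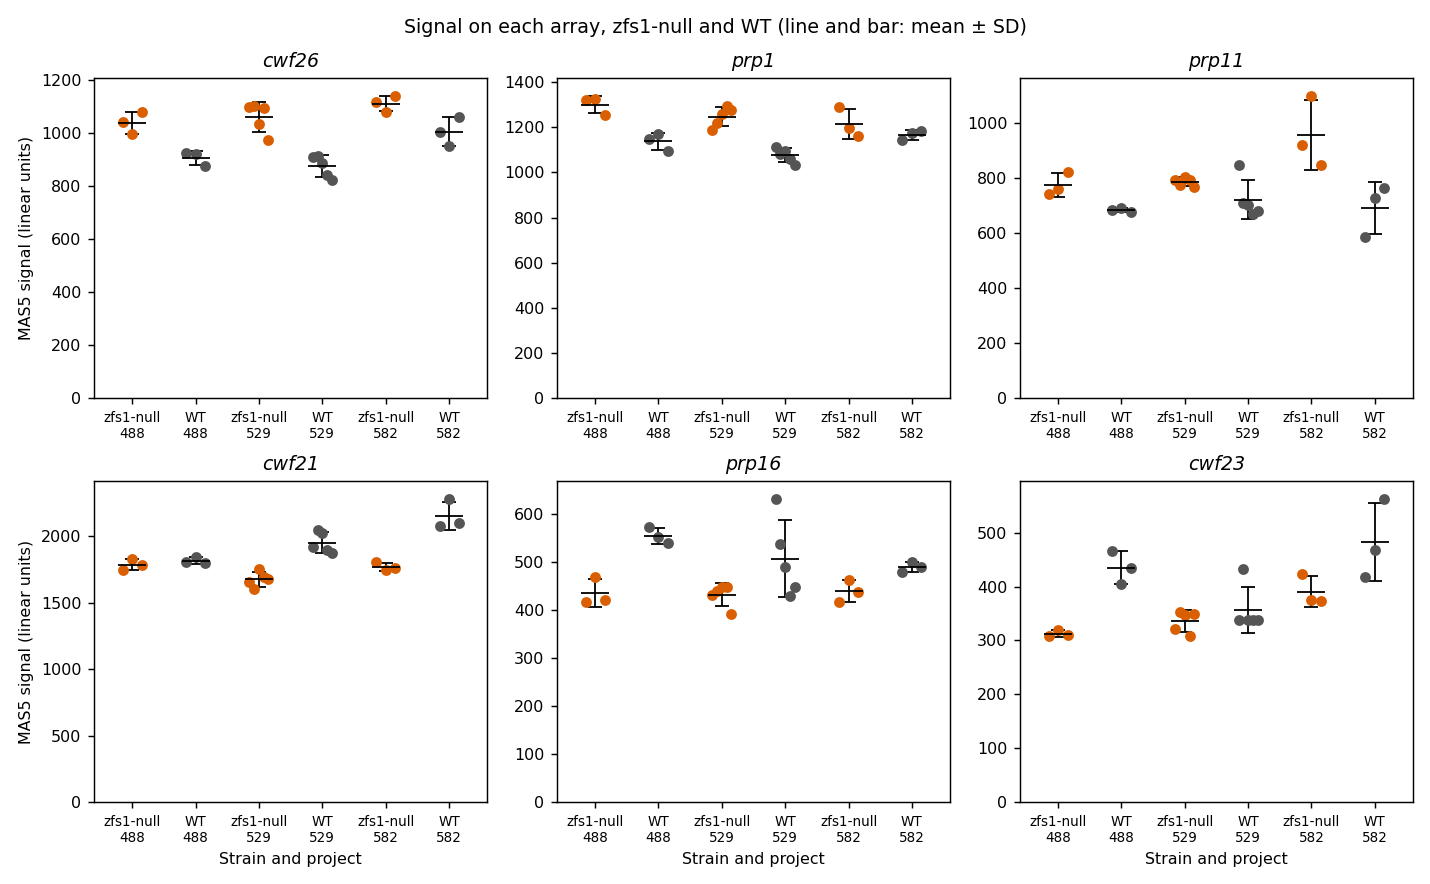
MAS5 signal (linear units, axis from 0) of 6 called genes on each zfs1-null (orange) and WT (grey) array of projects 488, 529 and 582, with horizontal lines at the mean and bars of 1 SD (n = 3, 5 and 3 per strain). The zfs1-null points of cwf26 lie above the WT points in all 3 projects, whereas those of cwf23 lie below WT without overlap in project 488 only.

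Within single projects the called genes differed. In project 488, 3 genes rose and 3 fell, where 19.7 percent of all genes were called, 9.87 percent higher and 9.80 percent lower. The largest rise was that of prp38, a tri-snRNP protein needed for spliceosome activation. It read 1143, 1106 and 1180.2 in zfs1-null and 965, 868 and 883 in WT arrays without overlap, a 1.26-fold rise (log2 0.34 ± 0.06 SE, adjusted p = 0.00525). The largest falls were those of cwf23 (log2 -0.48 ± 0.08 SE, adjusted p = 0.0028), prp16 (-0.35 ± 0.08 SE, adjusted p = 0.00964) and prp17 (-0.27 ± 0.07 SE, adjusted p = 0.0175). Prp17, a Prp19 complex partner needed for the second step, read 465, 453 and 455 in zfs1-null and 542, 566 and 552 in WT arrays. The small rises of cwf26 and prp1, of 0.19 and 0.19 (adjusted p = 0.0478 and 0.0402), lost their calls without any 1 of 6 and of 5 arrays. The prp17 call was lost without any 1 of 4 arrays (WT replicates 1 and 2, zfs1-null replicates 1 and 2) and the prp16 call without WT replicate 1, with adjusted p of at most 0.125 over these 4 genes.

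In project 529, which had the most replicates, 11 genes rose and 2 fell, where 42.2 percent of all genes were called, 25.7 percent higher and 16.5 percent lower. The split was 5 higher and 5 lower under both other scalings, where the split of all genes was 16.9 percent higher and 25.5 percent lower with equal medians and 19.5 and 18.3 percent with quantile normalization. Under these scalings cwf19, cwf4, cwf5, prp12, prp2, prp4 and prp43 lost the call in at least 1. The largest rise was that of prp22, with 433, 445, 493, 459 and 434 in zfs1-null and 371, 389.9, 365, 374 and 358 in WT arrays, which did not overlap. It rose 1.22-fold (log2 0.28 ± 0.05 SE, adjusted p = 0.000467). Next came cwf26 (0.28 ± 0.05 SE, adjusted p = 0.00036), prp3 (0.22 ± 0.06 SE, adjusted p = 0.0107) and prp1 (0.21 ± 0.04 SE, adjusted p = 0.000594). Those that fell were cwf21 (-0.22 ± 0.04 SE, adjusted p = 0.00035) and prp28 (-0.12 ± 0.04 SE, adjusted p = 0.0328). The helicase gene prp28 read 998, 1048, 959, 956 and 1073 in zfs1-null and 1135, 1106, 1084, 1104 and 1055 in WT arrays with overlap, and lost its call without any 1 of 6 arrays. Calls of prp12 and cwf4 were also lost without any 1 of 4 and of 3 arrays, the adjusted p of these 3 genes reaching at most 0.0878.

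In project 582, fitted with all 4 strains, 1 gene rose and 2 fell, where 11.3 percent of all genes were called, 4.14 percent higher and 7.14 percent lower. The split was 3 higher and 2 lower with equal medians (all genes 4.73 and 6.31 percent) and 4 and 1 with quantile normalization (5.90 and 6.48 percent). The rise was that of prp11 (1.38-fold, log2 0.47 ± 0.12 SE, adjusted p = 0.0212), lost without WT replicate 1 or zfs1-null replicate 2 (adjusted p at most 0.127). The falls were those of prp17 (log2 -0.35 ± 0.10 SE, adjusted p = 0.0426) and cwf21 (-0.28 ± 0.06 SE, adjusted p = 0.00685). Prp17 read 454, 477 and 448 in zfs1-null and 523, 606 and 630.1 in WT arrays, apart from each other, and its call was lost without any 1 of 7 of the 12 arrays (adjusted p at most 0.1495) and with quantile normalization. The prp43 signal was 756, 718 and 670.5 in zfs1-null against 438, 593 and 635 in WT arrays of this project, a log2 change of 0.38 that was not called (adjusted p = 0.0563). Without double-null replicate 2 in the shared fit 7 genes were called, and without zfs1-null replicate 2 only 1.

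Whether the zfs1 effect differed between projects was tested with an F test over the 22 arrays. For 5 of the 40 genes it did, where 19.7 percent of all genes passed. The U2AF subunit gene prp2 (adjusted p = 0.0185) had a log2 change of 0.05 in project 488, 0.16 in project 529 and -0.15 in project 582. In project 488 prp2 read 1584, 1612 and 1781 in zfs1-null and 1541, 1678 and 1575 in WT arrays. In project 529 prp2 read 1799, 1687, 1678, 1659.7 and 1688 in zfs1-null and 1439.8, 1562, 1428, 1536 and 1678 in WT arrays with overlap, and in project 582 it read 1278, 1293 and 1219 in zfs1-null, below 1440.1, 1417 and 1347 in WT arrays. For cwf21 (0.0205) the changes were -0.02, -0.22 and -0.28, in the same order of projects. For prp4, a protein kinase of the tri-snRNP (0.0283), they were -0.08, 0.19 and -0.17. Prp4 read 883, 852 and 1022 in zfs1-null and 1033, 1030.0 and 849 in WT arrays of project 488, and 1076, 949, 1041, 897 and 994 in zfs1-null and 845, 866, 828, 834 and 956 in WT arrays of project 529. In project 582 it read 1059, 1030.2 and 981 in zfs1-null, below 1218, 1145 and 1091 in WT arrays, while the strains overlapped in the other projects. For prp17 (0.0386) the changes were -0.27, 0.04 and -0.35, and for prp22 (0.0493) 0.08, 0.28 and -0.03. Prp17 read 376, 393, 389.7, 421 and 341 in zfs1-null and 299, 368, 412, 393 and 397 in WT arrays of project 529, with overlap. With equal medians cwf21 alone of the 5 kept its call (adjusted p of prp2, prp4, prp17 and prp22 0.0821, 0.0849, 0.111 and 0.165), and with quantile normalization cwf21 and prp2 kept theirs (prp4, prp17 and prp22 0.138, 0.259 and 0.504). Each of the 5 calls was lost without at least 1 array: cwf21 without zfs1-null replicate 2 of project 488, prp2 without zfs1-null replicate 3 of project 582, and prp4, prp17 and prp22 without any 1 of 5, 13 and 18 of the 22 arrays, with adjusted p of at most 0.105. The WT means of these genes also differed between projects: over the 3 projects the WT log2 means of the 40 genes spanned a median of 0.27 and at most 0.66, for cwf14, beside a median of 0.36 over all genes.

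Loss of Cbf12 in cells with Zfs1 was measured in project 582, and most of the called genes were lower. Of the 40 genes 10 fell and 1 rose in the cbf12-null, where 28.1 percent of all genes were called, 9.18 percent higher and 18.9 percent lower. The median log2 change of the 40 genes was -0.08, beside -0.07 over all genes. With equal medians the all-gene median moved by 0.11 and the split was 6 lower and 3 higher, where 9.38 percent of all genes were lower and 15.0 percent higher. With quantile normalization it was 8 lower and 3 higher, where the shares of all genes were 13.5 and 12.1 percent. Those that fell were prp18, prp17, prp28, cwf11, cwf26, prp12, prp1, prp3, cwf7 and cwf28, and the one that rose was cwf16.

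The largest fall was that of prp18, which encodes a factor of the second step. It read 399, 479 and 403 in cbf12-null and 647, 633 and 590.4 in WT arrays, without overlap, so that the cbf12-null was at 0.683 of WT (log2 -0.55 ± 0.11 SE, adjusted p = 0.00232). The prp17 signal was 437, 441 and 369.8 in cbf12-null and 523, 606 and 630.1 in WT arrays, 0.709 of WT (log2 -0.50 ± 0.10 SE, adjusted p = 0.00264). Prp18 and Prp17 are both known for the second step. The helicase genes prp16, prp22 and prp43 had log2 changes of -0.08 to 0.15 here and were not called. Cwf26 read 738, 892 and 696 in cbf12-null and 1001, 949.9 and 1061 in WT arrays (log2 -0.38 ± 0.10 SE, adjusted p = 0.00952). The helicase-like protein Cwf11, the counterpart of human Aquarius, read 444, 526 and 425 in cbf12-null and 533, 649 and 667 in WT arrays (log2 -0.41 ± 0.12 SE, adjusted p = 0.0239). These 4 genes were lower on every cbf12-null array than on every WT array.

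All 7 genes of the U5 and tri-snRNP group had negative changes here, from -0.42 to -0.15, and 3 of them fell, where 18.9 percent of all genes were called lower. Positive changes were found for 13 of the 40 genes and for 1139 of all 2899 genes. With equal medians the changes were -0.32 to -0.04 with 2 called, prp3 losing its call (adjusted p = 0.0865), and with quantile normalization -0.35 to -0.07 with 3 called. Prp28, a helicase that acts when U1 is exchanged for U6, read 770.5, 919.6 and 901 in cbf12-null and 1105, 1192 and 1169 in WT arrays (log2 -0.42 ± 0.11 SE, adjusted p = 0.00928). For prp1 the signals were 932, 961 and 820.1 in cbf12-null and 1141, 1172 and 1181 in WT arrays (log2 -0.37 ± 0.08 SE, adjusted p = 0.00296), and for prp3 they were 1524, 1653 and 1551 and 1935, 2015 and 1802, in the same order (log2 -0.28 ± 0.07 SE, adjusted p = 0.00623). All 3 were apart from WT on every array. Of the 4 that were not called, cwf10 (log2 -0.20, adjusted p = 0.0862) read 707, 776 and 665 in cbf12-null and 809, 842 and 819 in WT arrays, also without overlap, and prp4, prp31 and prp38 had log2 changes of -0.18, -0.26 and -0.15. All 4 branch site genes had negative changes as well, but with equal medians those of prp2 and prp11 were 0.03 and 0.09, and with quantile normalization -0.01 and 0.11. Only prp12 of them was called, with 571, 576 and 569 in cbf12-null and 689, 746 and 784 in WT arrays (log2 -0.37 ± 0.09 SE, adjusted p = 0.00782).

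The one gene that rose was cwf16, a first-step factor that corresponds to budding yeast Yju2. It read 1516, 1514 and 1535 in cbf12-null and 1199.5, 1187 and 1352 in WT arrays, without overlap, a 1.22-fold rise (log2 0.29 ± 0.07 SE, adjusted p = 0.0081). The calls of prp18, prp17, prp12, prp1, prp3 and cwf16 were kept when each of the 12 arrays was left out. That of prp28 was lost without cbf12-null replicate 1 and that of cwf26 without cbf12-null replicate 3, and those of cwf11, cwf28 and cwf7 were lost without any 1 of 4, 5 and 8 arrays, with adjusted p of at most 0.131 over the 5 genes. Without cbf12-null replicate 1 or replicate 3 the count fell to 7. With the project 582 WT level inferred from the zfs1 effect in projects 488 and 529, in place of its own arrays, the calls of prp17, prp12, prp3, cwf11, cwf28 and cwf7 were lost (log2 -0.22, -0.22, -0.12, -0.31, -0.18 and -0.22, adjusted p 0.0702 to 0.349).

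**Figure D3:**
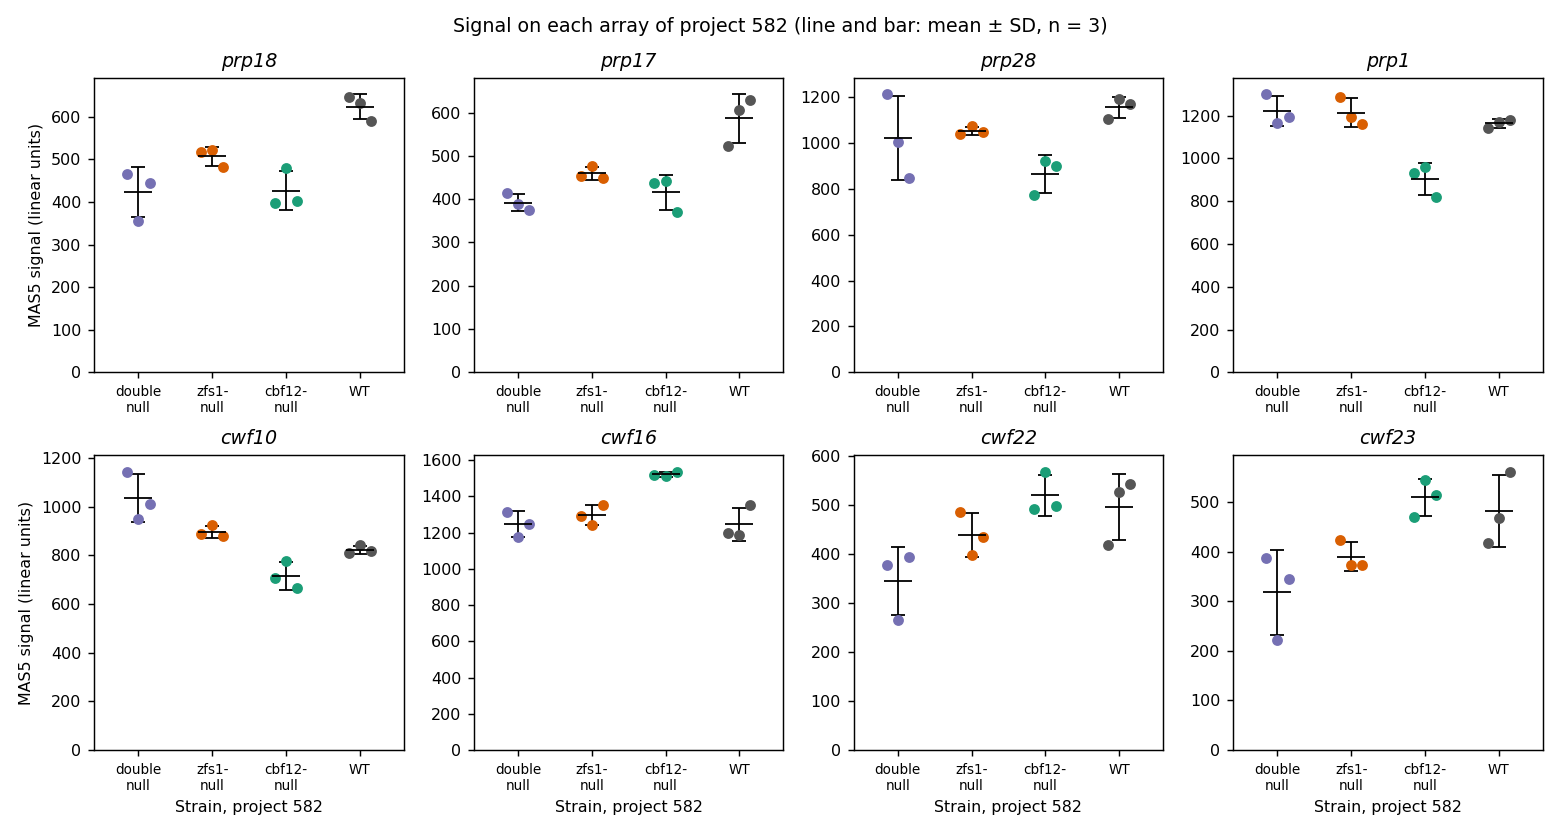
MAS5 signal (linear units, axis from 0) of 8 genes on each array of project 582, by strain: double null (purple), zfs1-null (orange), cbf12-null (green) and WT (grey), with lines at the mean and bars of 1 SD (n = 3 each). The cbf12-null points of prp18, prp17, prp28, prp1 and cwf10 lie below the WT points, those of cwf16 lie above, and double-null replicate 2 is the lowest point of cwf22 (265.5) and cwf23 (222).

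Loss of Zfs1 in cells without Cbf12 compared the double null with the cbf12-null. Of the 40 genes 9 rose and 3 fell, where 33.8 percent of all genes were called, 18.8 percent higher and 15.0 percent lower. The median log2 change was 0.08, beside 0.06 over all genes. Those that rose were cwf10, prp43, prp1, cwf26, cwf12, prp11, prp12, cwf7 and prp3, and those that fell were cwf23, cwf22 and cwf16. This comparison and the preceding one share the cbf12-null arrays, which enter them with opposite signs. For prp1 the values were 0.43 here and -0.37 in the cbf12-null against WT, for cwf26 0.40 and -0.38, for prp12 0.31 and -0.37, and for cwf16 -0.29 and 0.29.

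The largest rise was that of cwf10, the U5 GTPase that corresponds to Snu114. It read 1143, 951 and 1011 in the double null and 707, 776 and 665 in cbf12-null arrays, without overlap, a 1.44-fold rise (log2 0.53 ± 0.09 SE, adjusted p = 0.00024). Prp43 read 786, 701 and 652 in the double null and 519, 513 and 529 in cbf12-null arrays, also apart (1.37-fold, log2 0.45 ± 0.12 SE, adjusted p = 0.0107). For prp1 the signals were 1299.7, 1168 and 1196 in the double null and 932, 961 and 820.1 in cbf12-null arrays (1.35-fold, log2 0.43 ± 0.08 SE, adjusted p = 0.000614). All 3 genes were higher on every double-null array than on every cbf12-null array. Cwf12, a Prp19 complex component that corresponds to Isy1, rose 1.31-fold, with 2686, 3219.7 and 2446 in the double null and 2106, 2038 and 2209.6 in cbf12-null arrays (log2 0.39 ± 0.09 SE, adjusted p = 0.00322).

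The 2 largest falls were those of cwf23 and of cwf22, a protein of the active spliceosome that in human cells links it to the exon junction complex. The cwf23 signal was 388, 222 and 345 in the double null and 470.4, 545 and 515 in cbf12-null arrays (0.608 of the cbf12-null, log2 -0.72 ± 0.17 SE, adjusted p = 0.0046). For cwf22 it was 378, 265 and 394 in the double null and 493, 568 and 499 in cbf12-null arrays (0.656, log2 -0.61 ± 0.15 SE, adjusted p = 0.0056). Neither gene's groups overlapped, and double-null replicate 2 was the lowest array for both. Without that array the log2 changes were -0.48 for cwf23 and -0.43 for cwf22, and both calls held (adjusted p = 0.00937 and 0.0168). Cwf16 read 1316, 1173 and 1249 in the double null, below 1516, 1514 and 1535 in cbf12-null arrays (log2 -0.29 ± 0.07 SE, adjusted p = 0.0071). The calls of cwf7, prp11, prp12 and prp3 were lost without 3, 4, 1 and 8 of the 12 arrays, each left out singly (adjusted p at most 0.158), and the other 8 calls were kept. Those of cwf7 and prp3 were also lost under both other scalings.

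The double null against WT gave 5 genes that rose and 6 that fell, where 35.1 percent of all genes were called, 15.5 percent higher and 19.7 percent lower. The median log2 change of the 40 genes was -0.01, beside -0.04 over all genes. With equal medians the split was 8 higher and 4 lower (all genes 22.7 and 13.2 percent), and with quantile normalization 6 and 2 (10.7 and 10.04 percent). Quantile normalization lost the calls of cwf22, cwf23, prp16 and prp31, and equal medians those of prp16 and prp31. Those that rose were cwf12 (1.34-fold, log2 0.43 ± 0.09 SE, adjusted p = 0.00202), prp43 (0.37 ± 0.12 SE, adjusted p = 0.0268), prp11 (0.34 ± 0.12 SE, adjusted p = 0.0426), cwf10 (0.33 ± 0.09 SE, adjusted p = 0.00973) and cwf5 (0.32 ± 0.10 SE, adjusted p = 0.0221). Cwf12 read 2686, 3219.7 and 2446 in the double null and 2135, 2084 and 1961 in WT arrays, prp43 read 786, 701 and 652 and 438, 593 and 635, and prp11 read 946, 807 and 869 and 586, 728 and 764, in the same order. None of these 3 overlapped between the strains.

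The falls were those of cwf23 (log2 -0.63 ± 0.17 SE, adjusted p = 0.0108), prp17 (-0.58 ± 0.10 SE, adjusted p = 0.000944), prp18 (-0.57 ± 0.11 SE, adjusted p = 0.00185), cwf22 (-0.54 ± 0.15 SE, adjusted p = 0.0119), prp31 (-0.31 ± 0.10 SE, adjusted p = 0.0268) and prp16 (-0.29 ± 0.11 SE, adjusted p = 0.0475). The second-step gene prp18 read 467, 356 and 445 in the double null and 647, 633 and 590.4 in WT arrays, and prp17 read 413, 388 and 375 and 523, 606 and 630.1, in the same order. Both were apart from these WT arrays, which for prp18 read high beside WT of the other projects. Cwf23 read 388, 222 and 345 in the double null and 418, 468 and 562 in WT arrays, which did not overlap, and without double-null replicate 2 its log2 change was -0.39 and that of cwf22 -0.36, with adjusted p of 0.0325 and 0.0444. Calls kept without each array in turn were those of prp17, prp18, cwf10 and cwf12. Those of cwf22 and cwf23 were lost without WT replicate 3, that of prp43 without WT replicate 1 (log2 0.21, against 0.37 with it) or double-null replicate 1, those of cwf5 and prp31 without any 1 of 3 arrays, and those of prp11 and prp16 without any 1 of 6 and of 10 (prp11 log2 0.23 without WT replicate 1), the adjusted p reaching at most 0.1597. With the WT level inferred from the other projects as before, the calls of prp17, cwf10, cwf12, cwf5, prp11, prp31 and prp43 were lost (log2 -0.31, 0.23, 0.23, 0.20, 0.02, -0.19 and 0.15, adjusted p 0.0651 to 0.904). The WT arrays are shared with the cbf12-null against WT, where prp18 and prp17 had log2 changes of -0.55 and -0.50, and with the zfs1-null against WT of project 582, where they had -0.30 and -0.35.

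Loss of Cbf12 in cells without Zfs1, the double null against the zfs1-null, gave 1 call among the 40 genes, where 9.00 percent of all genes were called, 3.24 percent higher and 5.76 percent lower. Cwf21 read 2175, 2344 and 2214 in the double null and 1803, 1746 and 1762 in zfs1-null arrays, without overlap, a 1.27-fold rise (log2 0.34 ± 0.06 SE, adjusted p = 0.00213). The call was kept under every alternative run for it, with each of the 12 arrays left out among them. None of the 40 fell in limma's test. At an unadjusted p below 0.05, 6 of the 40 genes passed in either direction, beside 777 of all 2899 genes. The 10 genes that fell in the cbf12-null against WT had log2 changes here of -0.27 for prp18, -0.23 for prp17, -0.23 for cwf11, -0.14 for prp3, -0.13 for cwf26, -0.06 for prp28, -0.06 for cwf28, 0.01 for cwf7, 0.01 for prp1 and -0.01 for prp12, none of them called.

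Whether the 2 effects of cbf12 deletion differed was tested by the interaction of both deletions, the change in the double null beyond the sum of the single deletions. For 3 of the 40 genes it passed, 2 positive and 1 negative, where 9.76 percent of all genes were called, 4.38 percent positive and 5.38 percent negative. The median interaction of the 40 genes was 0.11 on the log2 scale, beside 0.05 over all genes. The value was 0.41 ± 0.12 SE, adjusted p = 0.0465, for cwf10, whose signals were 1143, 951 and 1011 in the double null, 888, 924 and 879.8 in zfs1-null, 707, 776 and 665 in cbf12-null and 809, 842 and 819 in WT arrays. In words, cwf10 was lowest in the cbf12-null and highest in the double null, and the 4 groups did not overlap. For prp1 it was 0.38 ± 0.11 SE, adjusted p = 0.0449, with 1299.7, 1168 and 1196, 1289, 1195 and 1160.0, 932, 961 and 820.1 and 1141, 1172 and 1181 in the same order of strains, the cbf12-null standing below the other strains. For cwf16 it was -0.35 ± 0.10 SE, adjusted p = 0.0436, with 1316, 1173 and 1249 in the double null, 1294, 1244 and 1355 in zfs1-null, 1516, 1514 and 1535 in cbf12-null and 1199.5, 1187 and 1352 in WT arrays, the cbf12-null standing above the rest. The fourth smallest adjusted p was that of cwf21 (log2 0.26 ± 0.09 SE, adjusted p = 0.0716), which was not called. Its signals were 2175, 2344 and 2214 in the double null, 1803, 1746 and 1762 in zfs1-null, 2262, 2301 and 2265 in cbf12-null and 2077, 2276 and 2102 in WT arrays, with the zfs1-null standing below the other strains. All 7 U5 and tri-snRNP genes had a positive interaction, from 0.11 to 0.41, and from 0.08 to 0.37 with equal medians and 0.08 to 0.39 with quantile normalization. It was also positive for 29 of the 40 genes and 1669 of all 2899 genes. The cbf12-null and WT arrays enter the interaction with signs opposite to those in the cbf12-null against WT. The U5 and tri-snRNP results of these comparisons are therefore not independent. The 3 calls were lost without any 1 of 10 arrays for cwf10, 10 for cwf16 and 9 for prp1 (adjusted p at most 0.125), so that 0 to 2 of the 40 genes were called when single arrays were left out. All 3 were lost when all probe sets were tested (adjusted p 0.0827 to 0.0959), and prp1 with quantile normalization (adjusted p = 0.0604).

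The other genes of the pathway came from a list of 78 splicing genes, chosen with earlier results of these data known, of which 61 genes outside the rule were matched and the rest are not analysed here apart from uaf1, another name of prp2. Counts of these genes under the other scalings are not given. In the combined zfs1 comparison 15 of the 61 rose and 4 fell, 31.1 percent beside 41.6 percent of all genes. The median log2 change was 0.06, beside 0.02 over all genes. Examples that rose were msl1 of U2 snRNP (log2 0.38), the second-step factor gene slu7 (0.28) and the SR protein gene srp1 (0.28), and among those that fell were cdc28, the Prp2-type helicase also named prp8 (-0.23), sde2 (-0.22) and dbr1, the lariat debranching enzyme (-0.15). In project 488, 9 rose and 1 fell, in project 529, 14 and 3, and in project 582, 3 and 2. These were 16.4, 27.9 and 8.2 percent of the 61, beside 19.7, 42.2 and 11.3 percent of all genes. The zfs1 effect differed between projects for 13 of the 61, 21.3 percent beside 19.7 percent of all genes.

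In the cbf12-null against WT 3 of the 61 rose and 12 fell, 24.6 percent beside 28.1 percent of all genes. The median log2 change was -0.14, beside -0.07 over all genes. Syf2, a Prp19 complex partner, fell by 0.91 on the log2 scale (adjusted p = 3.46e-07), cdc28 by 0.65 and dbr1 by 0.65, and uap2 (0.40), ini1 (0.37) and sde2 (0.23) rose. In the double null against the zfs1-null none rose and 3 fell by limma, 4.92 percent beside 9.00 percent of all genes. At an unadjusted p below 0.05, 17 of the 61 passed, beside 777 of all 2899 genes. In the double null against the cbf12-null 16 rose and 4 fell, among them syf2 (0.63), slu7 (0.46) and srp1 (0.42) higher and saf4 (-0.62), aar2 (-0.36) and sde2 (-0.34) lower. These calls were 32.8 percent of the 61, beside 33.8 percent of all genes. In the double null against WT 13 rose and 9 fell, 36.1 percent beside 35.1 percent of all genes. The interaction was positive for 5, among them syf2 (0.72), dbr1 (0.59) and snu66 (0.56), and negative for 1, uap2 (-0.41). It passed for 9.84 percent of the 61, beside 9.76 percent of all genes. The list holds sad1, moc3 and ppk1, symbols that name genes not known for splicing in S. pombe. Without them, over 58 genes, 11 in place of 12 were lower in the cbf12-null against WT, 13 in place of 14 higher in project 529, 2 in place of 3 lower in the double null against the zfs1-null, 8 in place of 9 lower in the double null against WT, and 12 in place of 13 differed between projects, the other counts being the same.

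**Figure D4:**
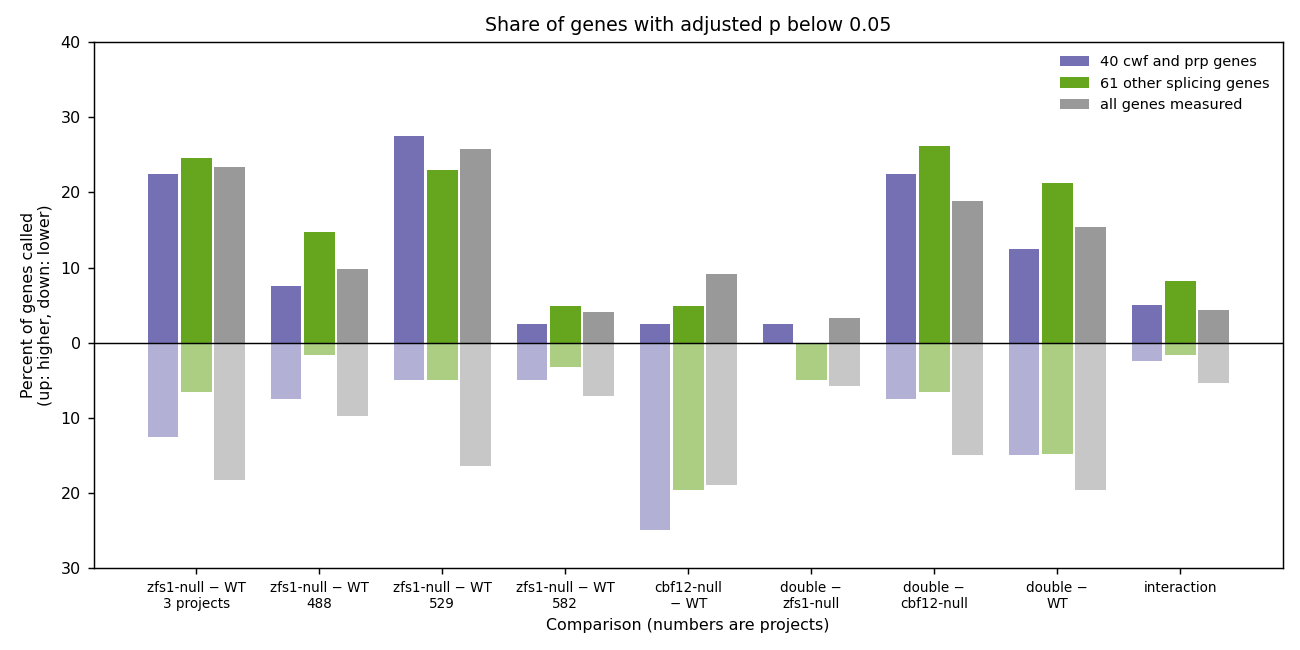
Percent of genes with a limma adjusted p below 0.05 in 9 comparisons, higher above the line (dark bars) and lower below it (pale bars), for the 40 cwf and prp genes (purple), 61 other splicing genes (green) and all genes measured (grey). In the combined zfs1 comparison 9 of 40 cwf and prp genes are higher beside 23.4 percent of all genes, and in the cbf12-null against WT 10 of 40 are lower beside 18.9 percent of all genes.

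Some members lie close together on a chromosome. Cwf22 and cwf24 are adjacent protein-coding genes, as are prp11 and cwf23, and 1 gene lies between cwf25 and prp2. In the double null against the cbf12-null cwf22 fell (log2 -0.61) while cwf24 had a log2 change of -0.01 (95% interval -0.19 to 0.16), and prp11 rose (0.36) while cwf23 fell (-0.72). In the combined zfs1 comparison prp11 and cwf23 also moved in opposite directions (0.23 and -0.25). The gene for Prp19 itself, the ubiquitin ligase at the centre of the complex, was called in no comparison. Its log2 changes were 0.04 in the combined zfs1 comparison (95% interval -0.07 to 0.14), -0.22 in the cbf12-null against WT (-0.46 to 0.02), 0.17 in the double null against the cbf12-null (-0.07 to 0.41) and -0.05 in the double null against WT (-0.29 to 0.19). For prp10, the largest SF3b subunit, the same 4 values were 0.00 (-0.07 to 0.07), -0.20 (-0.35 to -0.04), 0.13 (-0.02 to 0.28) and -0.07 (-0.22 to 0.09). These intervals are not adjusted for the number of genes tested, whereas the calls are. That of prp10 in the cbf12-null against WT therefore leaves out 0 although prp10 was not called.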

How the data were processed

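The deposited table gives an intensity for each of 10928 probe sets on each array, namely a linear MAS5 signal per the submitters' processing notes. MAS5 condenses a probe set's probes into 1 value on each array separately and scales each array. The MAS5 version and settings were not given in the sources used here. Trimmed by 2 percent at each end, the mean signal was 500.1 to 500.2 on all 28 arrays, which would hide a change common to most transcripts. RNA was amplified before labelling, per the labels' protocols, which can distort differences.

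The array's gene table lists 5538 probe sets, of which 2917 name 1 S. pombe gene, 20 several genes (left out) and 2601 another species. The brightest probe set per gene left 2899 genes. Names follow RefSeq assembly ASM294v3, which also gave neighbours and chromosomes. The sources used here do not name the array's build, so no coordinates or sequences are printed.

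Log2 signals were fitted with limma 3.58.1 in R 4.3.3 (lmFit and eBayes with an intensity trend), two-sided, with Benjamini-Hochberg adjustment over all 2899 genes of a comparison. The combined zfs1 fit had a term for project, each project was also fitted alone, and the 4 strains of project 582 were fitted together. Folds are ratios of geometric means. On simulated data of this design, 100 percent of 1.5-fold changes were recovered in the combined comparison, 96 percent for cbf12 deletion with Zfs1 present, 93 percent for zfs1 deletion without Cbf12 and 77 percent for the interaction, and 2.04 to 7.21 percent of calls over all comparisons were unchanged genes. The simulation had independent noise around a single mean per gene, no project differences, and 200 genes changed by at least 1.5-fold. Most changes called in the data were smaller, so these rates do not carry over to them.

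The members and lists were chosen with earlier results of these data known. Values by array were given for the 6 largest called changes of each direction in the combined zfs1 and the cbf12-null against WT comparisons, the 3 largest in each other comparison of strains, and the 4 smallest adjusted p of the difference between projects and of the interaction. They were also given for some further genes, such as prp1, prp3 and the uncalled cwf10 in the cbf12-null against WT and cwf12 in the double null against the cbf12-null. Other genes were described by ranges or changes. Deviations of same-numbered arrays from their group means gave mixed correlations (r -0.31 to 0.31, over 0.1 in 11 of 26 pairs). Differently numbered arrays were not compared, so this does not settle whether the numbers mark pairs. Replicate numbers were not used as pairs in the main fits. Alternatives covered scaling, an added signal of 16, the trend, the probe sets tested, a background filter, the strains or projects fitted, a replicate block and leaving out each array.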

Additional observations from a re-analysis of the deposited data

Results flagged for a closer look

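In groups of 5 arrays, 5 of 80 checks of single genes found 1 array far from the other 4, and chance gives about 1 in 20. In WT arrays of project 529, replicate 2 read 433 for cwf23, above the next array at 337, and replicate 1 read 846 for prp11, above the next at 710.1. In zfs1-null arrays of project 529, replicate 5 read 946 for cwf29, below the next at 996, and 1249.9 for cwf4, below the next at 1353, while replicate 1 read 1799 for prp2, above the next at 1688.

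The zfs1 effect differed between projects by the F test for prp2 (adjusted p = 0.0185), cwf21 (0.0205), prp4 (0.0283), prp17 (0.0386) and prp22 (0.0493). The interaction of the deletions passed for cwf10 (0.41 on the log2 scale), prp1 (0.38) and cwf16 (-0.35), with limma adjusted p of 0.0465, 0.0449 and 0.0436. Of all genes 19.7 percent passed the F test and 9.76 percent the interaction. Each of these 5 and 3 calls was lost when some single array was left out.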

How the results depend on the processing

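No change of a cwf or prp gene that was called reversed its direction under any alternative run. Equal medians shift all genes of a comparison alike, which can turn the sign of small changes. In the cbf12-null against WT the sign turned for 8 of the 40 genes, none of them called. Of 79 calls over 10 comparisons, 27 were kept in every alternative and 45 whenever a single array was left out. Scaling to equal medians lost 18, quantile normalization 20, testing all probe sets of both species 19, fitting only the strains compared 9, dropping the term for project 8, and leaving out the project 582 WT arrays, whose level was then inferred from the zfs1 effect seen in projects 488 and 529, 13. The number of genes called in the combined zfs1 comparison was 6 without a term for project, against 14 with it. In project 582 it was 5 with equal medians, 5 with quantile normalization and 5 with only the 2 strains fitted, against 3. For the difference between projects it was 3 with either scaling, 1 of the 5 among them with equal medians and 2 with quantile normalization, and 2 with all probe sets tested, against 5. For the double null against the zfs1-null it was 2 with either scaling, against 1, and for the double null against WT 4 with only the 2 strains fitted, against 11. For the interaction it was 1 without the intensity trend, 0 with all probe sets tested and 8 without the project 582 WT arrays, against 3. The causes were not tested.

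With single arrays left out the counts were 13 to 18 for the combined zfs1 comparison, 2 to 8, 10 to 15 and 1 to 7 in projects 488, 529 and 582, 2 to 6 for the difference between projects, 7 to 13 for the cbf12-null against WT, 1 to 2 for the double null against the zfs1-null, 9 to 13 against the cbf12-null and 7 to 11 against WT, and 0 to 2 for the interaction. Whether replicate numbers pair the arrays was not settled. With a replicate block 10 of the 79 calls were lost and the count for the difference between projects was 3 against 5, while the combined zfs1 comparison gave 12 and the cbf12-null against WT 12. All 40 genes were far above background, so signal over background sets no limit here.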
